A study of Sus scrofa with 14 samples.

Results

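A group of 9 genes of the NF-kappa-B system, of 30071 gene identifiers in the files, was followed through the mammary gland of the sow and through the cells of its milk. The members are a list of names, set with earlier results of these data known. They are the subunits NFKB1, NFKB2 and RELB, the inhibitors NFKBIA, NFKBIZ and TNFAIP3, the target genes ICAM1 and SOD2, and the ligand TNF. NF-kappa-B is a family of transcription factors that wait in the cytoplasm bound to inhibitors and enter the nucleus when receptors for cytokines or microbial products signal through the IKK kinases. Its targets include its own inhibitors, so that a signal is followed by its own brake, and genes of adhesion, survival, chemokines and antioxidant defence. In the mammary gland the pathway is known from the expansion of the epithelium in pregnancy, from infection and from involution, the loss of the secretory epithelium after milk removal ends.

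The samples came from multiparous sows in their second breeding cycle. Single-nucleus RNA libraries were made from the snap-frozen glands of 2 sows at each of day 90 of gestation (G90), day 0 and day 20 of lactation (L0, L20) and 2 and 7 days after natural involution (PI2, PI7). A section of the G90 gland and a section of the PI2 gland were measured by spatial transcriptomics, in which each spot is a small region that can hold several cells. Cells of L0 and L20 milk, labelled as mammary gland tissue, were measured in 1 single-cell library each, so that milk and sections have no replicates. The labels name no treatment or genetic change in any sow.

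Matches to the kappa-B consensus motif, the 10-letter sequence that NF-kappa-B dimers bind, were looked for on both strands in the 250 bases before the RefSeq start of each gene on Sscrofa11.1. Of the 9 windows 4 held a match, and those of RELB, NFKBIA and ICAM1 are shown for where the match lies. Such a match was held by 14% of 19531 windows of the same length. RELB is at chr6:51444670-51480350, plus strand, NFKBIA at chr7:64508119-64510754, plus strand and ICAM1 at chr2:69097136-69107722, plus strand. The windows are given 5′ to 3′ on the strand of the gene, at chr6:51444420-51444669, chr7:64507869-64508118 and chr2:69096886-69097135, and capitals mark the matches.
RELB: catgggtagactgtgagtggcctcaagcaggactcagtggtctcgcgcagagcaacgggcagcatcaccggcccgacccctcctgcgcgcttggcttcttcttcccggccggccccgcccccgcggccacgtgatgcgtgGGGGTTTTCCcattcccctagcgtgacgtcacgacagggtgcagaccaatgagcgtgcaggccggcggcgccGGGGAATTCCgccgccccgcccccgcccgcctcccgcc
NFKBIA: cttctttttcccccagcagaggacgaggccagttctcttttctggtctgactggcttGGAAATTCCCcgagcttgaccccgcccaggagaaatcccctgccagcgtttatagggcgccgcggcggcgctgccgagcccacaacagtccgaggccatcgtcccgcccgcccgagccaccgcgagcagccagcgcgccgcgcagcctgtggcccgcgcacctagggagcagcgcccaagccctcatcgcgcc
ICAM1: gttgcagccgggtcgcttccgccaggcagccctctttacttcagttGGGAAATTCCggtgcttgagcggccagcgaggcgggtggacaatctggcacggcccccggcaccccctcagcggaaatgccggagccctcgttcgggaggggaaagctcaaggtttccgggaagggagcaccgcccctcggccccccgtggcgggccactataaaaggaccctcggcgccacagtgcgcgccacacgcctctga
RELB held 2 matches, 110 to 101 and 38 to 29 bases before the start. In NFKBIA the match lay 193 to 184 bases before it, on the opposite strand, and in ICAM1 it lay 204 to 195 bases before it. The windows of NFKB1 (chr8:118391010-118478927, minus strand), NFKB2 (chr14:113406412-113414177, plus strand), NFKBIZ (chr13:157261419-157273119, minus strand), SOD2 (chr1:7679352-7689564, plus strand) and TNF (chr7:23699635-23702393, plus strand) held no match to these letters. A match is a description of the sequence and not a binding site.

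The 10 glands gave 126833 nuclei after filters, 9332 to 18693 per gland, with 18700704 to 53161349 unique molecular identifiers (UMIs) in all, each standing for 1 RNA molecule. The milk libraries held 14514 and 17571 cells with 42948881 and 80995806 UMIs, and the sections 2248 and 4721 spots with 17906403 and 42815421. Libraries shared at most 284 barcodes (milk L0 and L20). Nuclei were put into a class when they held at least 2 distinct markers of it and more than of any other class, and the 9 genes were in no marker list. Luminal epithelial nuclei, which line the alveoli and ducts and make milk, were 11.2 to 87.1% of the nuclei of a gland. The lowest share was in L20 gland 2, where fibroblasts and macrophages made up 4673 and 2125 of 15148 nuclei. That gland also held 2025 endothelial and 434 adipocyte-gated nuclei, and every other gland held at most 26 adipocyte-gated ones. Levels are given as CPM, the UMIs of a gene scaled to a total of 1000000 UMIs over the nuclei summed, and in such sums fewer expressing cells and less RNA per cell cannot be told apart. UMIs were not corrected for gene length, so levels are compared within a gene only.

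Luminal sums of the 2 glands of a stage did not always resemble each other (Spearman rho across 10341 genes, a description of genes that share depth and composition). The 2 glands of G90 (0.881) and of L0 (0.962) correlated best with each other. Each gland of L20, PI2 and PI7 correlated best with a gland of another stage, L20 gland 1 with PI2 gland 2 (0.911), L20 gland 2 with PI7 gland 1 (0.926) and PI2 gland 1 with PI7 gland 2 (0.939), while the 2 glands of L20 stood at 0.747, those of PI2 at 0.726 and those of PI7 at 0.894. Caseins were 0.0854 and 0.0107% of UMIs in the L20 glands, 0.0384 and 0.100% in those of PI2 and 0.0115 and 0.0197% in those of PI7, so L20 overlapped PI2 and PI7 in them, and 0.827 and 1.13% in those of L0. Whether samples or labels were exchanged among these 6 glands was not tested, so their levels are given gland by gland under the stage of the label.

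Among the subunits in luminal nuclei, NFKB1 had the smallest ratio of its highest to its lowest gland, and NFKB2 and RELB were highest in L20 gland 1 and PI2 gland 2. NFKB1 encodes a precursor whose processed form pairs with RELA in the canonical dimer. It was counted at 182 and 150.3 CPM in the G90 glands, 355 and 318 in those of L0, 328 and 322 in those of L20, 186 and 338 in those of PI2 and 247 and 216 in those of PI7. Both L0 glands and both L20 glands lay above both G90 glands, and one PI2 gland reached the L0 range while the other stayed near G90. NFKB2, whose processed form is the partner of RELB in the non-canonical pathway, was counted at 16.9 and 13.5 CPM in the G90 glands, 25.6 and 17.5 in those of L0, 46.1 and 5.96 in those of L20, 25.4 and 80.4 in those of PI2 and 16.2 and 12.4 in those of PI7. The 2 glands of L20 differed 7.72-fold in NFKB2 and those of PI2 3.17-fold, and those of the other stages at most 1.47-fold. RELB, which has its own activation domain, was counted at 80.3 and 54.0 CPM in the G90 glands, 69.6 and 98.8 in those of L0, 143 and 58.9 in those of L20, 64.1 and 219 in those of PI2 and 75.4 and 106 in those of PI7. Its G90, L0 and PI7 glands overlapped, and the 2 glands of PI2 differed 3.42-fold.

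Of the inhibitors, NFKBIA and NFKBIZ were highest in the same pair of glands, and TNFAIP3 was highest in PI2 gland 2 alone. NFKBIA, the inhibitor that holds dimers in the cytoplasm, was counted in luminal nuclei at 89.8 and 85.7 CPM in the G90 glands, 131 and 156 in those of L0, 203 and 62.2 in those of L20, 51.7 and 279.5 in those of PI2 and 189 and 73.2 in those of PI7. Both L0 glands lay above both G90 glands, and from L20 on each stage held one gland at or above the L0 values and one below them. NFKBIZ, a nuclear inhibitor-like protein that also acts as a co-activator, was counted at 57.5 and 44.5 CPM in the G90 glands, 125 and 97.4 in those of L0, 146 and 125 in those of L20, 124 and 236 in those of PI2 and 126 and 137 in those of PI7. The 2 G90 glands were the lowest of the 10. TNFAIP3, the ubiquitin-editing enzyme A20 that shuts off receptor signalling, was counted at 14.8 and 18.6 CPM in the G90 glands, 16.6 and 23.3 in those of L0, 21.5 and 6.96 in those of L20, 4.10 and 54.8 in those of PI2 and 18.4 and 7.98 in those of PI7. PI2 held both its lowest and its highest gland, 13.4-fold apart.

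The targets and the ligand also had their 2 highest levels in L20 gland 1 and PI2 gland 2. SOD2, the mitochondrial superoxide dismutase, was counted in luminal nuclei at 97.7 and 62.9 CPM in the G90 glands, 179 and 187 in those of L0, 649 and 100.1 in those of L20, 142 and 1081 in those of PI2 and 139 and 180.0 in those of PI7. L20 gland 1 and PI2 gland 2 stood above all other glands in SOD2, 6.49-fold and 7.62-fold over the second gland of their own stage, and both L0 glands stood above both G90 glands. ICAM1, the endothelial and epithelial ligand of leukocyte integrins, was counted at 16.3 and 27.4 CPM in the G90 glands, 75.5 and 57.0 in those of L0, 159 and 20.7 in those of L20, 14.7 and 379.7 in those of PI2 and 21.8 and 40.5 in those of PI7. Its PI2 glands were 25.9-fold apart, the largest difference between 2 glands of a stage among the 9 genes in luminal nuclei. TNF, the cytokine that activates the pathway through its receptors, was counted at 2.27 and 4.89 CPM in the G90 glands, 2.95 and 0.765 in those of L0, 9.31 and 2.41 in those of L20, 0.626 and 14.9 in those of PI2 and 1.99 and 1.26 in those of PI7. All of its values were low, and its PI2 glands differed 23.8-fold. Over all kept nuclei SOD2 ranged from 62.4 (G90 gland 2) to 1021 CPM (PI2 gland 2) and ICAM1 from 22.9 (PI2 gland 1) to 358 (PI2 gland 2).

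**Figure D1:**
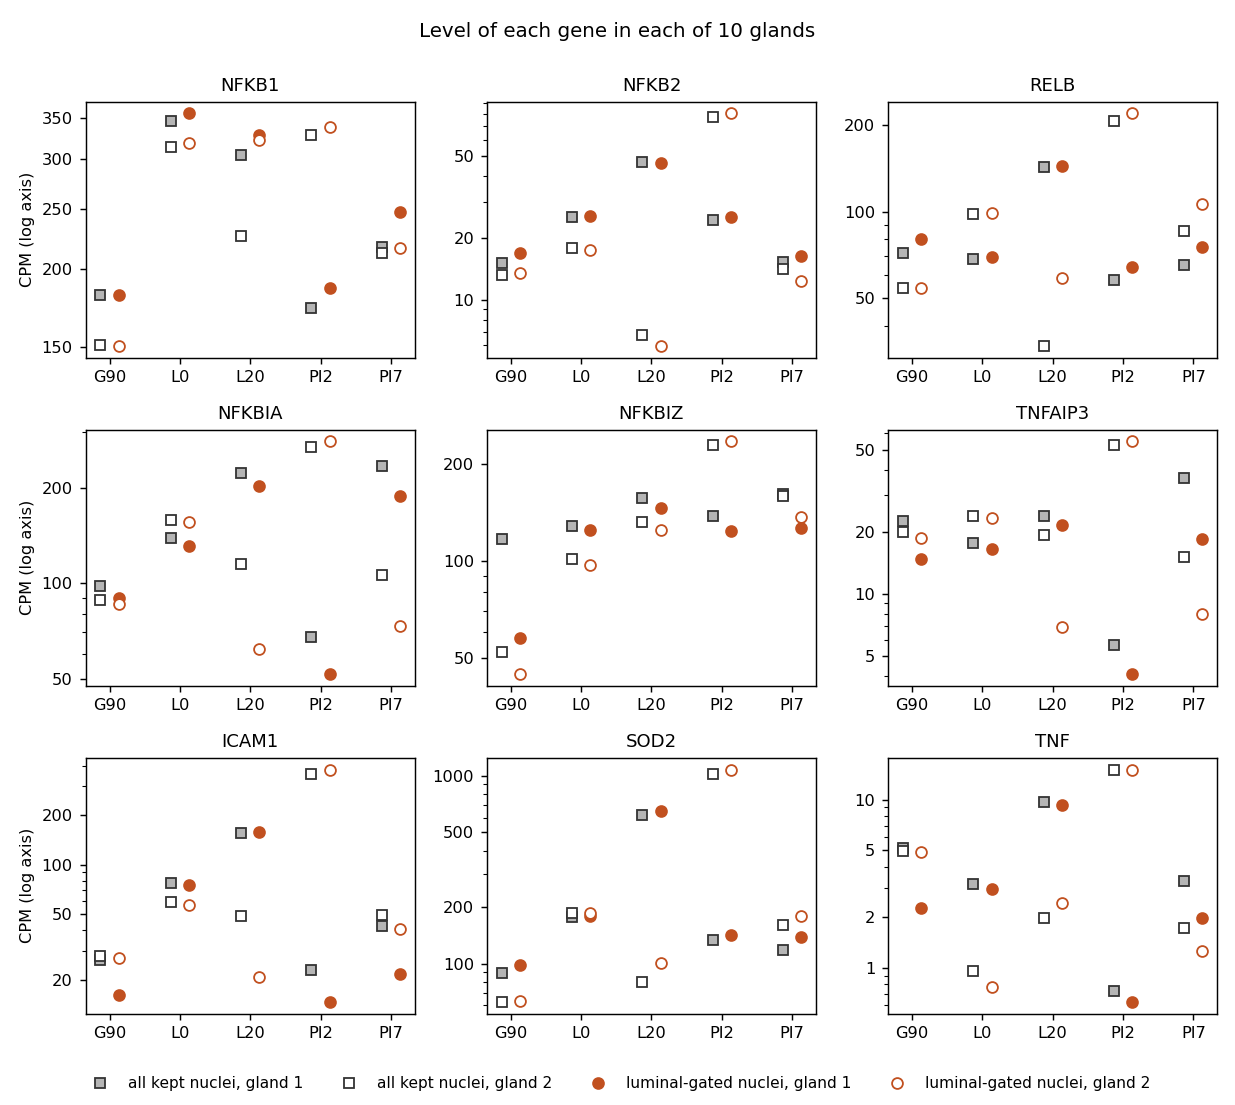
Level of each of the 9 genes (CPM, log axis) in each gland at the 5 stages, as squares for all kept nuclei and circles for luminal epithelial nuclei, filled for gland 1 and open for gland 2 of a stage. In most panels the filled L20 symbols and the open PI2 symbols stand above the rest, as for SOD2 in luminal nuclei at 649 and 1081 CPM.

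Stages were compared in luminal nuclei to ask whether the pathway moved with pregnancy, lactation and involution. None of the 9 genes passed the test (edgeR's quasi-likelihood test over all 5 stages, Benjamini-Hochberg adjusted p under 0.05 and over 2-fold) in any of the 5 comparisons. The comparison of L0 with G90 called 1 of 20101 genes (0.00497%), and L20 with L0, PI2 with L20, PI7 with PI2, and PI2 and PI7 with L0 and L20 called 0%. At an unadjusted p under 0.05 edgeR counted 547 to 2552 genes in these comparisons, and DESeq2 called 8 to 958 genes and none of the 9. NFKB1 had a log2 fold change of 1.41 (SE 0.44, adjusted p = 0.246) from G90 to L0 and NFKBIZ one of 1.52 (SE 0.48, adjusted p = 0.249), the 2 of the 9 genes at an unadjusted p under 0.05 there. SOD2 had one of 1.61 (SE 1.0, adjusted p = 0.629) and ICAM1 one of 1.91 (SE 1.29, adjusted p = 0.672). When only the 4 glands of G90 and L0 were fitted, 1087 genes were called, and NFKBIZ (log2 fold change 1.48, adjusted p = 0.0350), SOD2 (1.57, adjusted p = 0.0339) and ICAM1 (1.88, adjusted p = 0.0384) were among them. The error of the first fit comes from all 10 glands, and that of the second from these 4. The number of genes tested in the second fit is not given here, so its member calls have no share of all genes beside them.

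From PI2 to PI7, NFKB2 had a log2 difference of -2.23 (SE 0.92), ICAM1 one of -2.98 (SE 1.34) and SOD2 one of -2.27 (SE 1.02) in luminal nuclei, and the 3 were at an unadjusted p under 0.05 with an adjusted p of 1 in edgeR. DESeq2 had 4 of the 9 at that unadjusted level. The differences of ICAM1 and SOD2 rested on PI2 gland 2, and without it they were 0.98 in ICAM1 and 0.05 in SOD2. PI2 gland 1 lay below both PI7 glands in ICAM1 and between them in SOD2. NFKB2 was at -0.97 without PI2 gland 2, and PI2 gland 1 lay above both PI7 glands in it. The median difference over the 9 genes on the log2 scale was 1.09 at L0 against G90, beside -0.08 over all genes tested. It was -0.05 at L20 against L0 (0.04 over all genes), 0.58 at PI2 against L20 (0.10) and -1.57 at PI7 against PI2 (-0.05). PI2 gland 2 was the highest gland for most members. A fit without it, but with L20 gland 1 kept, lowers PI2 against L20 in those members by that choice. The signs of the members in such a fit are therefore not counted here. For SOD2, the comparison of involution (PI2 and PI7) with lactation (L0 and L20) gave a log2 difference of 0.01 (SE 0.69, adjusted p = 0.997).

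Levels that did not overlap between stages were counted as a description. Of the 9 genes 6 (ICAM1, NFKB1, NFKB2, NFKBIA, NFKBIZ and SOD2) had both L0 glands above both G90 glands in luminal nuclei, against 15.4% of 18580 genes that were higher and 42.7% that were lower in this way. With median-of-ratios size factors, a scaling chosen after the data were seen, 7 of the 9 were higher, against 26.2% higher and 27.4% lower. From L0 to L20 only NFKBIZ was higher in both glands (36.4% of genes higher, 13.3% lower), and none was with size factors. From L20 to PI2 none of the 9 was separate in either direction (8.87% higher, 13.6% lower). From PI2 to PI7 NFKB2 was lower in both glands (18.7% of genes higher, 7.83% lower).

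Over all kept nuclei edgeR called 0% of 22695 genes in each of the 5 comparisons, with 464 to 2912 genes at an unadjusted p under 0.05, and DESeq2 called 19 to 1157 genes and none of the 9. NFKB1 was at an unadjusted p of 0.0249 from G90 to L0, with a log2 difference of 1.38 (SE 0.54) and an adjusted p of 0.595 in edgeR. From PI2 to PI7 NFKB2 (-2.18), ICAM1 (-2.44) and SOD2 (-2.42) were at an unadjusted p under 0.05 over all nuclei too, with an adjusted p of 0.998 each in edgeR, and DESeq2 also had 3 of the 9 at that unadjusted level. Without PI2 gland 2 they were -1.02, 0.74 and -0.19. Between involution and lactation edgeR called 0% of genes in macrophages (8182 genes), fibroblasts (13074) and endothelial nuclei (12772), with 497 to 693 genes at an unadjusted p under 0.05, and DESeq2 called 1 to 28. Of the 8 members tested in these classes none was at an unadjusted p under 0.05. In endothelial nuclei SOD2 was counted at 50.5 and 33.9 CPM in the G90 glands, 98.0 and 109 in those of L0, 453 and 67.8 in those of L20, 88.5 and 675 in those of PI2 and 85.2 and 92.6 in those of PI7. L20 gland 1 and PI2 gland 2 were the highest there too. Fibroblast nuclei of these 2 glands were also the highest, at 449 and 372 CPM of SOD2 against 41.3 to 163 in the other 8. In macrophages ICAM1 was highest in the same 2 glands, at 131 and 134, although the other 8 reached 106. Of the endothelial nuclei, 134 of 410 in L20 gland 1 and 62 of 150 in PI2 gland 2 led by only 1 marker. Nuclei of no class reached 947 CPM of SOD2 in their highest gland. Free RNA and doublets were not removed, and their part in the levels of these classes was not tested.

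L20 gland 1 and PI2 gland 2 were thus the 2 highest glands for several members, a pattern described here without a test. The pair was set, and genes were named, after the levels of the members were seen. The counts of members with this order therefore follow in part from that choice. Of the 9 genes 7 (ICAM1, NFKB2, NFKBIA, NFKBIZ, RELB, SOD2 and TNF) had these as their 2 highest glands in luminal nuclei, against 6.18% of 18580 genes. Over all kept nuclei there were 5 (ICAM1, NFKB2, RELB, SOD2 and TNF), against 5.52% of 21244 genes. Of 74 other genes of the pathway with luminal UMIs 18 had the same order, and of 75 over all nuclei 15. With median-of-ratios size factors there were 7 of the 9 over all nuclei (8.0% of genes) and 24 of the 75, and in luminal nuclei 7 of the 9 (9.35%) and 25 of the 74. Among those over all nuclei in the first scaling were the kinases MAP3K14 and MAP3K8, the adaptor MYD88, the inhibitor NFKBIE and the targets CXCL8, IL6, IER3 and IRF1. CXCL2, a neutrophil-attracting chemokine, was counted over all nuclei at 195 and 151 CPM in the G90 glands, 1207 and 969 in those of L0, 3243 and 121 in those of L20, 802 and 2587 in those of PI2 and 294 and 812 in those of PI7. Its next highest level was in L0 gland 1. BIRC3, which encodes the survival protein cIAP2, stood at 664 in L20 gland 1 and 769 in PI2 gland 2.

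Other measures of these 2 glands are given beside this pattern, and their part in the levels was not tested. The glands held 431 and 107 of the luminal nuclei gated by FDCSP and PIGR, and the other glands held at most 24. The neutrophil markers, 8 of 12 of which were found, summed to 134 to 1394 CPM in luminal nuclei, highest in L20 gland 1 and 214 in PI2 gland 2, and nearly all of it was PGLYRP1. Of these 8 markers S100A8, at 0 in 4 glands, and CSF3R had these 2 glands as their highest, and the other 6 did not, MMP25 being lowest in PI2 gland 2 (3.87). Neutrophil-gated nuclei were 67 in L20 gland 1 and at most 15 in the others. Mitochondrial UMIs were 0.153 to 2.09% of a library, and the 2 glands were at 2.09% and 1.21%. Genes of immediate early and heat shock responses were 0.0246 to 0.225% of the UMIs of a gland. They were 0.225% in L20 gland 1 and 0.111% in PI2 gland 2. Median UMIs per nucleus ran from 1382 to 2496 over the glands, with 1382 in L20 gland 1 and 1643.5 in PI2 gland 2.

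Classes were compared within glands to ask which cells carried each gene. Each class was set against the mean of the other 7, over 12627 genes, with the gland as a block (TNF had too few UMIs to be tested). Luminal nuclei were higher in SOD2, by a log2 difference of 1.09 (SE 0.13, adjusted p = 5.6e-11, edgeR), the only call among the 8 members, where 24.1% of all genes were called. DESeq2 and RLE scaling each put that SOD2 difference at 0.72, and without G90 gland 1 it was 0.99, all below 2-fold. RELB (0.87, adjusted p = 9.5e-07), NFKB1 (0.68, adjusted p = 3.5e-07) and NFKB2 (0.57, adjusted p = 0.00492) were also higher in luminal nuclei, at less than 2-fold. RELB was highest in B and plasma nuclei in 5 of 8 glands (median 110 CPM, against 77.9 in luminal nuclei) and in luminal nuclei in 3 of 10, and NFKB1 in T and NK nuclei in 4 glands and in luminal nuclei in 4. The B and plasma level of RELB rested on 61 UMIs over the 8 glands and ran from 25.4 to 423 CPM. In SOD2 the luminal nuclei were the highest class in 5 of 10 glands, with a median of 161 CPM and a range of 62.9 to 1081.

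The inhibitors were spread over other classes. Endothelial nuclei held the most NFKBIA in 10 of 10 glands, at a lowest of 189, a median of 309 and a highest of 631 CPM. Their log2 difference was 1.68 (SE 0.12, adjusted p = 4.1e-20), the 1 call of 8 members beside 14.3% of all genes. ICAM1 was also higher there at less than 2-fold (0.95, SE 0.22, adjusted p = 0.00032). Myoepithelial nuclei, the contractile cells around the alveoli, were highest for NFKBIZ in 8 of 10 glands, at a lowest of 196, a median of 476 and a highest of 743. The difference was 1.75 (SE 0.18, adjusted p = 3.7e-13), again 1 call of 8 beside 12.9%.

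TNFAIP3 was higher in macrophages (log2 difference 1.11, SE 0.24, adjusted p = 8.1e-05), 1 call of 8 beside 19.6%, and in T and NK nuclei (1.1, SE 0.24, adjusted p = 0.00016). The level ran from 9.49 to 122 with a median of 55.1 in macrophages, and from 6.91 to 107 with a median of 52.6 in T and NK nuclei, so the 2 classes overlapped. A gate of at least 3 markers ended both calls, at 0.94 and 0.96, as did leaving out G90 gland 1 (1.0 and 0.91). So did leaving out L0 gland 1 in macrophages (0.98), and L20 gland 2 (0.97) or PI7 gland 2 (0.93) in T and NK nuclei, where fitting without the gland as a block did too (0.97). ICAM1 was higher in macrophages at less than 2-fold (0.92, SE 0.24, adjusted p = 0.00089). T and NK nuclei had 2 calls of 8 beside 14.9%, the second being lower NFKBIZ (-1.14, SE 0.24, adjusted p = 8.0e-05). NFKBIA was lower there at less than 2-fold (-0.92, SE 0.17, adjusted p = 5.8e-06), and its T and NK level was the lowest of the classes in 8 of 10 glands. B and plasma nuclei had the 1 call of lower NFKBIZ (-1.99, SE 0.38, adjusted p = 2.8e-05) beside 16.3%. Their NFKBIZ level rested on 31 UMIs over 8 glands. In PI7 gland 1, which held the most B and plasma nuclei, 82 of 104 led by only 1 marker. No member was called in mural nuclei (12.5% of genes) or fibroblasts (12.7%), where edgeR had 4 and 2 of 8 members at an unadjusted p under 0.05 and DESeq2 called 1 and 0. TNF was highest in T and NK nuclei in 5 glands and in macrophages in 4.

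**Figure D2:**
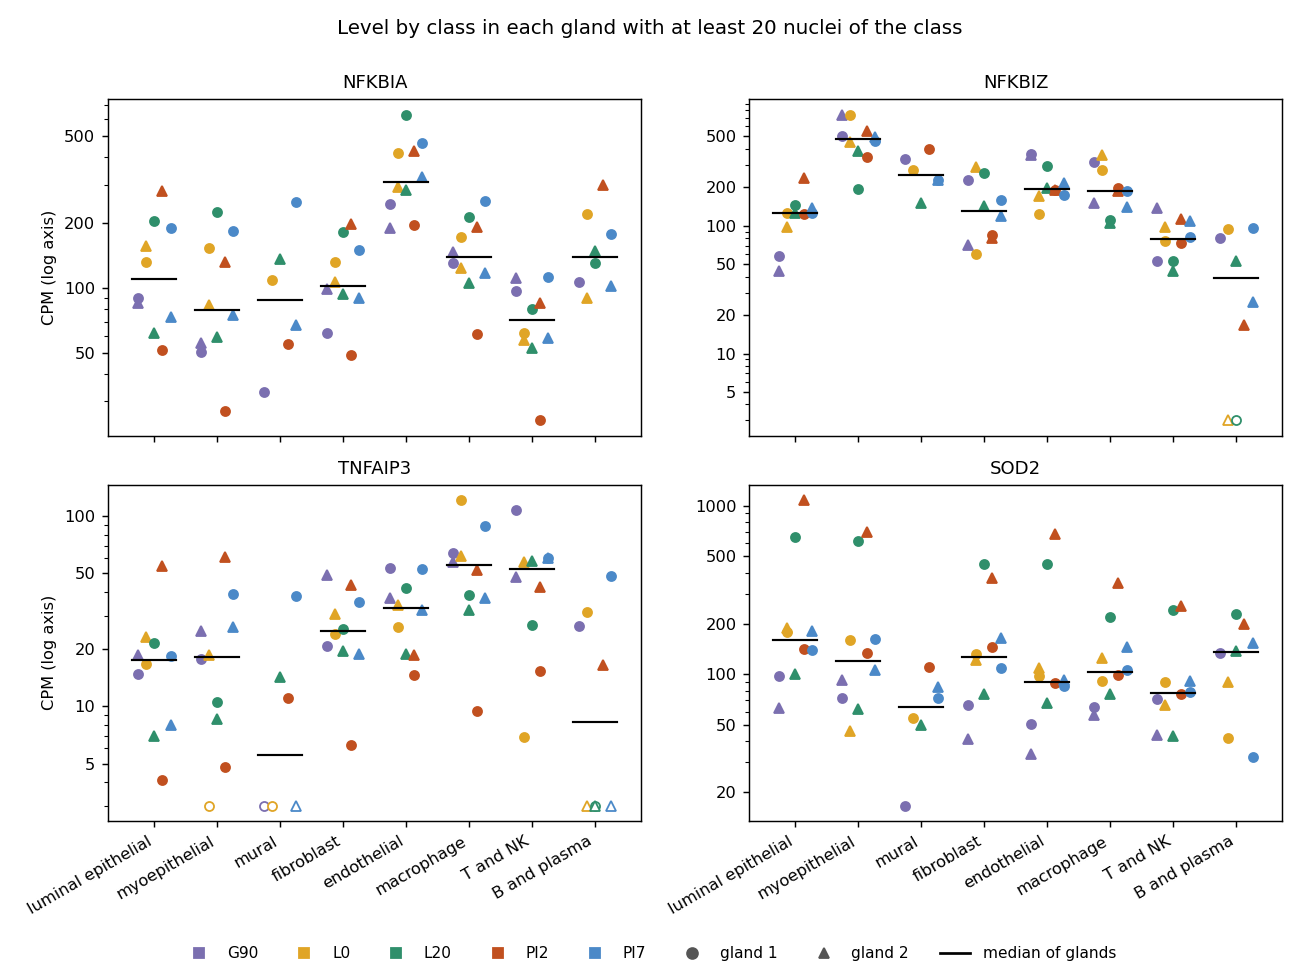
Level of NFKBIA, NFKBIZ, TNFAIP3 and SOD2 (CPM, log axis) in each class of nuclei, 1 symbol per gland, coloured by stage, a circle for gland 1 and a triangle for gland 2, with the median of the glands as a line and levels under 3 drawn open at 3. Endothelial NFKBIA has its median at 309 and myoepithelial NFKBIZ at 476 CPM, above the medians of the other classes.

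**Figure D3:**
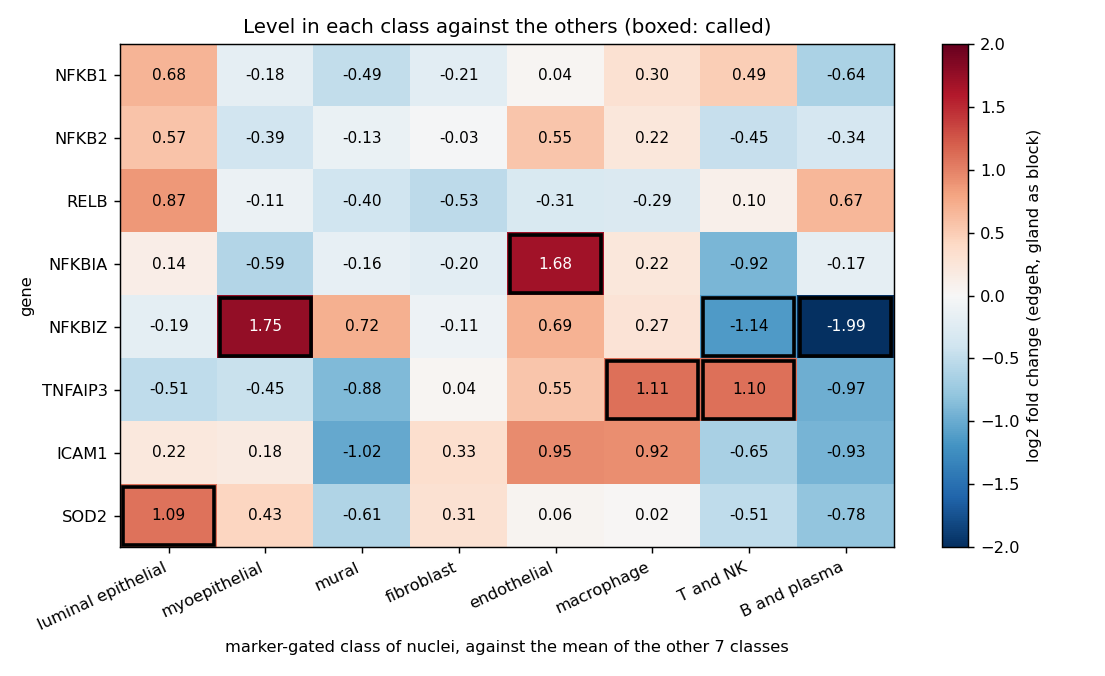
Log2 difference of each member (rows) between a class of nuclei (columns) and the mean of the other 7 classes, from edgeR with the gland as a block. Boxed cells were called at an adjusted p under 0.05 and over 2-fold, as in NFKBIA of endothelial nuclei at 1.68 and NFKBIZ of B and plasma nuclei at -1.99.

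Within luminal nuclei, hormone-sensing nuclei (gated by ESR1, PGR and others) were lower in RELB (log2 difference -1.03, SE 0.17, adjusted p = 0.000399, edgeR), the 1 call of 8 members beside 9.22% of genes. RELB was counted in hormone-sensing nuclei at 45.3 and 64.1 CPM in the G90 glands, 35.8 and 69.3 in those of L0, 37.9 and 21.0 in those of L20, 21.8 and 101 in those of PI2 and 38.4 and 37.4 in those of PI7. In luminal nuclei of no subclass it was 91.0 and 56.1 CPM in the G90 glands, 71.4 and 108 in those of L0, 165 and 66.6 in those of L20, 76.0 and 225 in those of PI2 and 83.2 and 118 in those of PI7. In 9 of 10 glands the hormone-sensing level was the lower of the pair, G90 gland 2 being the exception. The call ended without L20 gland 1 (-0.93), L20 gland 2 (-0.99), PI2 gland 1 (-0.97) or PI7 gland 2 (-0.99), and without the gland as a block. NFKBIZ (-0.73, adjusted p = 0.00243), NFKB2 (-0.89, adjusted p = 0.0190), TNFAIP3 (-0.79, adjusted p = 0.0429), ICAM1 (-0.84, adjusted p = 0.0307) and SOD2 (-0.49, adjusted p = 0.0155) were lower there at less than 2-fold. Progenitor-gated nuclei had no call among 9 members (1.14% of genes), with NFKB1 and ICAM1 past the adjusted p at less than 2-fold, 3 members at an unadjusted p under 0.05, and 0 calls with DESeq2. Nuclei gated by FDCSP and PIGR reached 20 in only 3 glands, and had no call by edgeR (0.233% of genes), with 0 of 9 members at an unadjusted p under 0.05 and 0 calls with DESeq2. SOD2 was 666 there in L20 gland 1, 1659.6 in PI2 gland 2 and 216 in PI7 gland 2, against 714, 1093 and 201 in luminal nuclei of no subclass, and its difference was 0.23 (SE 0.19, adjusted p = 0.999).

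The other genes of the pathway came from lists of 86 genes by role, of which 72 could be tested. Macrophages had 25 higher and 1 lower, where 19.6% of all genes were called, among them the subunit REL (log2 difference 1.61, SE 0.16), the receptors TLR4 (3.25) and TLR2 (2.44), which bind bacterial products, the ligand TNFSF13B (3.89), the kinase IRAK2 (2.38), and the targets CXCL8 (4.27), MMP9 (4.13) and IL1A (3.79). T and NK nuclei had 13 higher and 7 lower (14.9% of all genes called), with REL (2.33), TRAF5 (2.62) and the chemokine CCL4 (2.97) higher. Luminal nuclei had 9 higher and 10 lower, near the 24.1% of all genes called, with the receptor TNFRSF11A, also named RANK (1.45), its ligand TNFSF11 (1.34), and IL15 (2.08) higher and the TNF receptor TNFRSF1B (-1.40) and VCAM1 (-2.53) lower, TNFSF11 being below 2-fold with DESeq2 (0.88). Hormone-sensing nuclei were higher in TNFSF11 (4.84, adjusted p = 7.1e-08), the RANK ligand known from progesterone response, and had 5 higher and 3 lower of 62 (9.22% of all genes called).

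Endothelial nuclei had 10 higher and 6 lower of 72 (14.3% of all genes called), with TNFRSF11A (2.03), the TNF receptor TNFRSF1A (1.62), the adaptor BCL10 (1.34), IRAK3 (1.43) and IER3 (2.57) higher and CD44 (-1.88) lower. Fibroblasts had 4 higher and 7 lower (12.7%), with IL1R1 (2.46), PTGS2 (3.04), VCAM1 (2.43) and CSF1 (1.5) higher and REL (-1.56) lower. Mural nuclei had 3 higher and 12 lower (12.5%), with CCL2 (3.06) and VCAM1 (2.60) higher, and all 6 of their calls among kinases and adaptors lower. Myoepithelial nuclei had 4 higher and 7 lower (12.9%), with the RNA sensor TLR3 (1.53) and the inhibitor TNIP3 (1.27) higher, and B and plasma nuclei 1 higher and 8 lower (16.3%). In fibroblasts, myoepithelial and B and plasma nuclei the share called was near that of all genes. No gene of these lists was called between stages by edgeR in any class tested.

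The 2 genes whose level over 74 sums of a gland and a class (13592 genes, log2 of CPM plus 1) was most like a member were found for each of the 9. SOD2 was most like FDCSP (Pearson r = 0.81) and ELF3 (0.78), RELB like TMEM178B (0.74) and KDM4A (0.73), ICAM1 like RNF19B (0.72) and TMED9 (0.70), and TNFAIP3 like RNF19B (0.70) and ZNF830 (0.66). NFKB1 was most like LPIN2 (0.70), NFKB2 like SLC66A2 (0.66), NFKBIA like the venular receptor ACKR1 (0.61), NFKBIZ like KATNAL1 (0.77) and TNF like CXCL8 (0.58). The points share libraries and depth, so the correlations are descriptions.

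In milk all 9 genes were higher in the L20 library than in the L0 library, by counts of 1 library each that cover counting error only. The L0 library held 12206 neutrophil-gated cells (69.5%, 95% exact interval 68.8 to 70.1%) and 3133 luminal cells (17.8%, 95% exact interval 17.3 to 18.4%). The L20 library held 8403 (57.9%, 95% exact interval 57.1 to 58.7%) and 1237 (8.52%, 95% exact interval 8.07 to 8.99%), and fibroblast and mural cells numbered at most 9 in a library. Macrophage-gated cells were 1.95% at L0 and 8.02% at L20, T and NK cells 1.79% and 8.16%, and cells of no class 8.63% and 17.0%. SOD2 stood at 273 CPM at L0 and 1597 at L20, 5.86-fold higher (95% interval 5.77 to 5.95). ICAM1 was higher 5.65-fold, TNFAIP3 4.71-fold, TNF 3.71-fold, NFKB2 3.35-fold, NFKBIA 3.34-fold, NFKBIZ 2.79-fold, NFKB1 2.61-fold and RELB 2.55-fold. All 9 passed 2-fold, where 14.1% of 17029 genes did, and the median ratio was 3.35 for the 9 and 0.939 for all genes. Luminal cells held most UMIs of the L0 library but not of the L20 library. They held NFKB1 at 25.6 CPM at L0 and 23.3 at L20, against 198 and 366 in neutrophil-gated cells. Its ratio was at most 1.85 in the neutrophil-, macrophage-, T and NK- and luminal-gated cells. The part of the make-up of the libraries in the all-cell ratios was not tested.

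Within neutrophil-gated cells the ratios were smaller. NFKBIA was 2248 at L0 and 5283 at L20 (2.35-fold, 95% interval 2.32 to 2.38), and SOD2 911 and 3287 (3.61-fold, 3.54 to 3.67). ICAM1 was 135 and 514 (3.79-fold, 3.62 to 3.97), and TNFAIP3 157 and 442 (2.82-fold). These 2 targets and TNFAIP3 had the highest ratios, NFKB2 (2.34-fold) and NFKBIZ (2.26-fold) lay near NFKBIA, and TNF (1.94-fold), NFKB1 (1.85-fold) and RELB (1.78-fold) were the lowest of the 9. Of the 9 genes 6 passed 2-fold, beside 7.55% of 13337 genes. The median ratio was 2.34 for the 9 and 0.846 for all genes.

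In macrophage-gated cells 3 of the 9 passed 2-fold (6.93% of genes), SOD2 at 2.98-fold (95% interval 2.77 to 3.21), TNFAIP3 at 2.23-fold and NFKBIA at 2.08-fold, and RELB had a ratio of 1.21 (0.90 to 1.66). T and NK cells had 3 (9.15%), SOD2 at 3.87, ICAM1 at 2.98 and NFKB2 at 2.51, and NFKB1 was lower at L20, with a ratio of 0.64 (0.48 to 0.84). Luminal cells also had 3 (5.01%), SOD2 at 3.71-fold from 74.2 to 275, ICAM1 at 3.46 and TNFAIP3 at 2.13. TNFAIP3 fell below 2-fold there with a gate of 3 markers (1.75) and with stricter barcode filters, which left 2 of the 9 past it. NFKB1 in luminal cells had a ratio of 0.91 (0.79 to 1.05) and NFKBIZ one of 0.85 (0.78 to 0.94). Neutrophil-gated cells were most of the cells of each library, but most UMIs of the L0 library were in luminal cells. In each library luminal and T and NK cells held less SOD2 than neutrophil-gated cells, and the SOD2 ratios of the 3 classes were alike. NFKBIA was lower there too, at 269 and 314 in luminal cells and 408 and 477 in T and NK cells, but its ratio was 1.17 in both, against 2.35 in neutrophil-gated cells. Free RNA, which carries the transcripts of abundant cells into other droplets, was not removed, and its part in the ratios of the smaller classes was not tested.

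**Figure D4:**
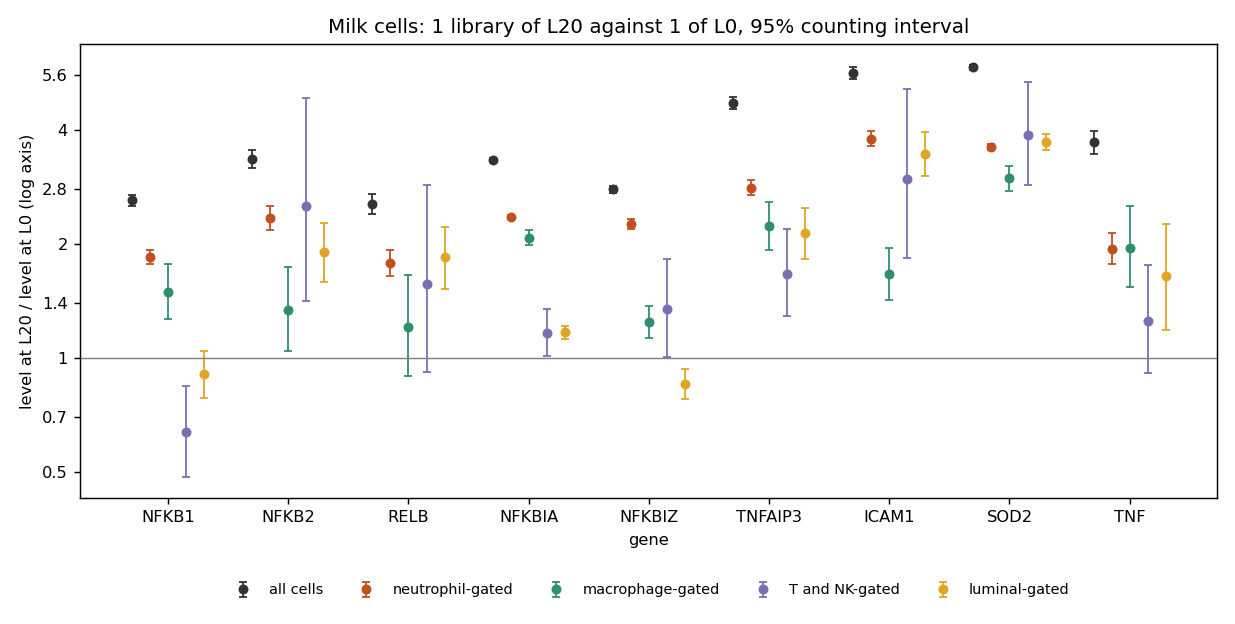
Ratio of the level at L20 to that at L0 (log axis) for each of the 9 genes in milk cells, for all cells and 4 gated classes, with a 95% counting interval, from 1 library per stage. SOD2 lies above 2 in every class, and NFKB1 lies from 0.64 in T and NK cells to 1.85 in neutrophil-gated cells.

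Of the other pathway genes in neutrophil-gated milk cells, 9 targets of 23 were over 2-fold higher and 2 under 0.5-fold, with a median ratio of 1.27. CSF3, with 48 UMIs at L0, was at 28.0-fold (95% interval 20.9 to 38.2) and CCL2 at 12.8. The lowest were PLAU (0.254), MMP9 (0.4995) and JUNB (0.606). IL6 rested on 1 UMI at L0 and 64 at L20, a ratio of 86.1 (14.9 to 3454). Of the 11 genes listed as inhibitors 2 were over 2-fold higher, TNIP3 (13.7) and TNFAIP2 (3.46), the second a TNF-induced gene rather than a known inhibitor. Of 25 kinases and adaptors 3 were, IRAK2 (3.47), TRAF1 (2.37) and BIRC3 (2.31). Of 13 receptors and ligands 2 were over 2-fold higher, IL1R1 (2.50) and CD40 (2.32), and 4 under 0.5-fold, among them TNFRSF9 (0.186) and the B-cell survival factor TNFSF13B (0.380), with a median ratio of 0.954 in the list, and neither of the 2 other subunits passed either mark (median 0.997). Over all 13337 genes 7.55% were over 2-fold higher and 23.8% under 0.5-fold. The libraries also differed outside the pathway, in ways whose part in these ratios was not tested. Caseins were 16.0% of all UMIs at L0 and 6.13% at L20, the neutrophil markers summed to 30447 and 19035 CPM in neutrophil-gated cells, and the genes of immediate early and heat shock responses to 16081 and 10423. Luminal cells had a median of 16577 UMIs at L0 and 2633 at L20.

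ICAM1 was the member that differed most between the 2 sections among those with at least 100 UMIs. It stood at 12.3 in the G90 section and 22.3 CPM in the PI2 section (ratio 1.81, 95% interval 1.59 to 2.07). RELB followed at 1.49, NFKB2 at 1.46, NFKBIA at 1.3 and NFKBIZ at 1.25, and SOD2 stood at 107 and 118 (1.1, 1.04 to 1.16). NFKB1 (0.868, 0.780 to 0.965) and TNFAIP3 (0.832, 0.696 to 0.991) were lower in the PI2 section. None of these 8 passed 2-fold, while 11.6% of 11673 genes did. TNF rested on 29 UMIs at G90 and 63 at PI2, a ratio of 5.19 (3.30 to 8.37). The sections are 1 each, so the differences compare 2 sections and not stages.

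Spots richest in the markers of a class were set against the other spots of their section, as the tenth with the highest share. Of 8 members with enough UMIs, the endothelial-rich spots of G90 had 2 over 2-fold (4.58% of genes), NFKBIZ at 4.04 (95% interval 3.43 to 4.74) and ICAM1 at 4.06 (3.28 to 5.0). In the twentieth of spots in place of the tenth they were 5.76 and 6.29. The mural-rich spots had the same 2 at 2.09 and 2.08 (1.1% of genes), the fibroblast-rich spots NFKBIZ at 2.20 (4.46%) and the adipocyte-rich spots NFKBIZ at 2.30 (3.82%). In the PI2 section NFKBIZ was 1.58 (1.12 to 2.17) in the endothelial-rich, 0.899 in the mural-rich, 0.739 in the fibroblast-rich and 1.04 in the adipocyte-rich spots, the last 3 with intervals that include 1. NFKBIA was 1.28 in the endothelial-rich spots of G90 and 1.45 in those of PI2. In PI2 the endothelial-rich spots had ICAM1 at 2.01 (1.44 to 2.75, 6.04% of genes), and the T and NK-rich spots TNFAIP3 at 2.11 (0.451%). In PI2 SOD2 was 2.21 (1.98 to 2.47) in the luminal-rich (5.44%) and 2.15 in the myoepithelial-rich spots (4.28%). It was 2.08 in the spots richest in the neutrophil list (3.76%), and 1.21 in the luminal-rich spots of G90. Those 3 groups of PI2 shared 135 to 159 of their 224 spots, so they are not separate regions. The neutrophil list includes PGLYRP1, which had 942722 UMIs in all L0 milk cells and 12297 in neutrophil-gated ones. The spots richest in that list were thus not shown to hold neutrophils.

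**Figure D5:**
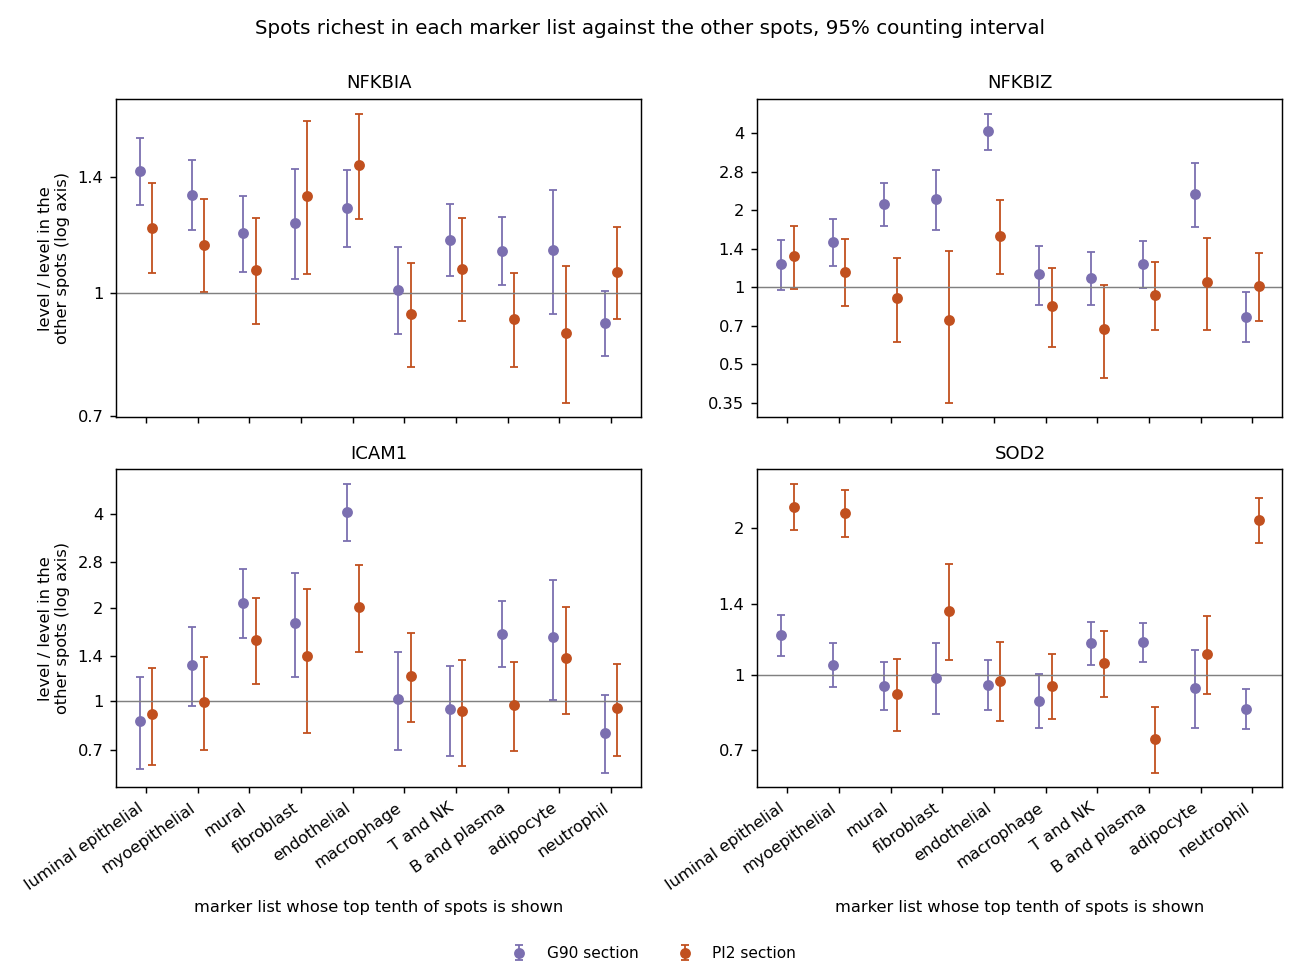
Level of NFKBIA, NFKBIZ, ICAM1 and SOD2 in the tenth of spots richest in each marker list, divided by the level in the other spots (log axis), with a 95% counting interval, for the G90 and the PI2 section. NFKBIZ and ICAM1 are highest in the endothelial-rich spots of G90, near 4. SOD2 is near 2 in the PI2 spots richest in the luminal, myoepithelial and neutrophil marker lists.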

How the data were processed

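The authors made droplet libraries of nuclei and milk cells, aligned them to Sscrofa11.1 with CeleScope, and deposited whole UMI counts per gene and barcode without normalization. For the sections they deposited UMI counts per gene and spot from Space Ranger, given as version 1.2.0 in the submitters' processing notes and as 1.3.1 in the file header. For the annotation release, a version was not given in the sources used here. Neither doublets nor free RNA had been removed in these counts, and neither was removed here.

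Barcodes were kept that had 300 genes or more and no more than 25% mitochondrial UMIs. A barcode joined the class with most distinct markers, at least 2 and more than in any other class, and counts were summed per gland and class where at least 20 nuclei were present. Groups came from the sample labels. The main test of these sums was the quasi-likelihood test of edgeR 4.0.16 in R 4.3.3, after a filter on low counts and TMM scaling, in 1 fit over the 5 stages or, between classes, with the gland as a block. Genes were called at a Benjamini-Hochberg adjusted p under 0.05 and over 2-fold. By the study's methods the 2 glands of a stage came from separate sows. Milk and section ratios have exact intervals at 95% conditional on the counts, which cover counting error only. Where genes past 2-fold or without overlap were counted, a gene needed at least 100 UMIs over the sums compared (20 in milk). Only the fitting step was tried on simulated counts, for luminal against endothelial nuclei within glands and for L0 against G90 glands. Those counts had the same dispersion in every gene and no gland effect. The fit over the 5 stages, the gates, milk, sections and promoter windows were not simulated.

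The alternatives were DESeq2 1.42.0, RLE size factors, no filter on low counts, each replicate left out, only the stages compared, no minimum fold change, the replicate number as a block, a gate of 3 markers, no gland block, stricter barcode filters (500 genes, with 5% mitochondrial UMIs in glands and 10% in milk) and the twentieth of spots in place of the tenth. Casein-free milk totals and median-of-ratios size factors were added after the data were seen. Whether same-numbered glands deviate together was checked between every pair of stages, and their correlations ran from -0.48 to 0.35, so the numbers do not pair the glands.

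The members and all lists were chosen with earlier results of these data known, and the study itself names SOD2 in involuting luminal cells and NF-kappa-B in involuting epithelial cells, so neither is independent evidence. The genes named are the 9 members, per comparison and list the 3 called pathway genes with the largest difference, the 2 genes most like each member, the technical lists and, outside this rule and after their values were seen, pathway genes that were highest in L20 gland 1 and PI2 gland 2. Promoter windows, gene positions and motif matches come from the RefSeq annotation and genome of Sscrofa11.1. The values of 1 gene of the pathway lists, which the counts by list include, and 1 promoter window are not reported here.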

Additional observations from a re-analysis of the deposited data

How the results depend on the processing

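With 2 glands a stage, calls between stages depended on the tool. In the comparisons of L0 with G90, L20 with L0, PI2 with L20, PI7 with PI2, and involution with lactation, edgeR called at most 1 gene, while DESeq2 called 397, 1157, 25, 19 and 189 genes over all nuclei and 797, 958, 8, 37 and 468 in luminal nuclei. Without a filter on low counts the counts were 33, 269, 3, 0 and 29 over all nuclei, and 255, 344 and 138 in luminal nuclei for L0 with G90, L20 with L0 and involution with lactation. Fitting only the stages compared gave 407 genes over all nuclei and 1087 genes in luminal nuclei for L0 with G90. It gave 24 in luminal nuclei for L20 with L0. In macrophages, fibroblasts and endothelial nuclei DESeq2 called 1, 28 and 22 genes and edgeR without the filter 31, 97 and 86. The replicate number as a block gave 0 genes for L0 with G90 in luminal nuclei, where there had been 1, and changed no other count of calls by over 1.5 times. Same-numbered glands correlated from -0.48 to 0.35, so no pairing was taken.

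Between classes, members called in luminal nuclei were 0 with DESeq2 and 0 with RLE scaling, in mural nuclei 1 with DESeq2, and in B and plasma nuclei 2 with either. Over the classes DESeq2 called 1449 to 3279 of all genes. No filter gave 2 members in macrophages, and 4656 and 3275 genes in luminal and in T and NK nuclei. The gate of 3 markers gave 0 members in macrophages and 1238 genes in B and plasma nuclei. In hormone-sensing nuclei no filter gave 3 members and 2588 genes, and no gland block 0 members and 459 genes. Progenitor nuclei had 770 genes with no filter, 2 with no gland block and 50 with the gate of 3. Nuclei gated by FDCSP and PIGR had 13 genes with DESeq2 and 0 with no gland block.

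With a replicate left out, genes called ranged from 0 to 15 (L20 with L0) and 0 to 1 (involution with lactation) over all nuclei. In luminal nuclei they ranged from 0 to 71 for L0 with G90, 0 to 74 for L20 with L0 and 0 to 12 for involution with lactation, and from 0 to 3 in macrophages, 0 to 10 in fibroblasts and 0 to 1 in endothelial nuclei. Members called ranged from 0 to 1 in luminal, 1 to 2 in endothelial, 0 to 2 in macrophage, 1 to 3 in T and NK, 1 to 2 in B and plasma and 0 to 2 in hormone-sensing nuclei. All genes called there ranged, in that order, from 2838 to 3176, 1699 to 1876, 2357 to 2520, 1766 to 1966, 1788 to 2092 and 945 to 1242. The main fits tested 12627 genes between classes and 11408 in hormone-sensing nuclei. Genes called ranged from 110 to 327 in progenitor nuclei and from 16 to 33 in those gated by FDCSP and PIGR, where the log2 difference of SOD2 ranged from -0.033 (without PI2 replicate 2) to 0.39. With median-of-ratios size factors, chosen after the data were seen, 0 members were higher and 1 lower at L20 than at L0 in both luminal glands. The cause of these shifts was not tested.

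In milk, a gate of 3 markers left 2 members past 2-fold in luminal cells and 4 in macrophages, and it and the stricter filters left 7 in neutrophils, where TNF passed, while casein-free totals moved no member across 2-fold. In the twentieth of spots ICAM1 also passed 2-fold in the adipocyte-rich (2.49) and the B and plasma-rich spots (2.34) of G90, and TNFAIP3, on 7 UMIs, in the adipocyte-rich spots of PI2 (2.25).

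TNF had few UMIs, T and NK and B and plasma sums were small in several glands, and the milk and section ratios rest on 1 library each, so their depth limits counting error only.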
